A study of Mus musculus with 2 samples.

Results

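Putative binding sites of DLX2 were listed around 8 of the 21779 protein-coding genes annotated in the mouse genome. These 8 are genes of the oral epithelium, namely *Trp63*, *Grhl2*, *Grhl3*, *Esrp1*, *Esrp2*, *Nectin1*, *Jag2* and *Cdh1*. The genes were chosen for their known part in closing the lip and palate. Every CUT&Tag peak inside one of these genes or within 100 kb of it was taken, which gave 36 of the 28061 peaks of replicate 1 and 89 of the 62093 peaks of replicate 2. A shared region is a stretch covered by a peak of each replicate, and 11 of the 10921 shared regions fell in these windows.

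The libraries came from cells of the maxillary process, which grows into the greater part of the upper jaw, of wildtype C57BL/6 embryos at E12.5. CUT&Tag uses an antibody, here against DLX2, to bring a transposase to the protein, so that nearby DNA is cut and tagged. Both libraries belong to 1 group, with no allele or treatment and no control library used here, so nothing was tested between groups. How many embryos went into each library is not stated in the sources used here. Maxillary process tissue holds mesenchyme and a covering epithelium, and since the files hold peaks and no expression, the cell type behind a peak could not be checked.

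The lip and palate form when epithelial sheets of facial outgrowths meet, adhere and are removed from the seam. p63, encoded by *Trp63*, maintains the basal cells of stratified epithelia, and the grainyhead-like factors *Grhl2* and *Grhl3* activate genes of the epithelial barrier. *Esrp1* and *Esrp2* encode RNA-binding proteins that set epithelial splicing patterns, *Cdh1* and *Nectin1* encode adhesion molecules of adherens junctions, and *Jag2* encodes a Notch ligand that keeps palatal shelves from fusing with the tongue. Loss of several of these genes causes clefts in mice. DLX2 itself is a homeodomain transcription factor of neural crest mesenchyme and of parts of the facial epithelium.

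A start site was given for *Grhl3* and *Jag2* in the RefSeq promoter sequences for GRCm38.p6. The 250 bases before each are shown, and no peak of either replicate lay over them. Of all 32851 RefSeq promoter stretches, 0.791% lay under a replicate 1 peak and 2.69% under a replicate 2 peak. Capitals mark CACCTG, an E-box of Zeb and Snail factors, and TGTGGT, a Runx core, which do not overlap each other.

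*Grhl3*, minus strand, chr4:135573633-135573882: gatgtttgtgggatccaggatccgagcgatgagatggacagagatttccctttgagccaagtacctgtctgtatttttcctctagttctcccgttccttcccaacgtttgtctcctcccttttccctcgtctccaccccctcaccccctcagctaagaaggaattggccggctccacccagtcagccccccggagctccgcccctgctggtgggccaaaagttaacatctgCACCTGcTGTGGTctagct

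*Jag2*, minus strand, chr12:112929496-112929745: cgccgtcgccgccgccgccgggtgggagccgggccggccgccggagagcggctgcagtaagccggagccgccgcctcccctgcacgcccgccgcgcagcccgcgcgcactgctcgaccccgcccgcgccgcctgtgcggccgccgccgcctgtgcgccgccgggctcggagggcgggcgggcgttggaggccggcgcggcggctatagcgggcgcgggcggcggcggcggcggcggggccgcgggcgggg

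The *Grhl3* stretch held CACCTG at position 232 and TGTGGT at position 239, counted from its 5′ end. On either strand, CACCTG occurred in 17.2% and TGTGGT in 14.0% of 32851 RefSeq promoter stretches of the same length. The letters TAATTA, a DLX homeodomain core, were in neither stretch, and 4.84% of all the promoter stretches held them. CACGTG, an E-box of Mnt, and AACCGGTT, a Grhl site, were also in neither, against 6.02% and 0.116% of all stretches. The *Jag2* stretch had a GC content of 87.2% and that of *Grhl3* 56.0%, beside a mean of 53.2% over all stretches.

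Of the 8 genes, 6 had at least 1 shared region in the gene or within 100 kb, while *Esrp1* and *Cdh1* had 0. By the same rule 60.2% of all protein-coding genes had a shared region, so 6 of 8 genes lay near the background. *Jag2* had 3 shared regions, *Grhl2*, *Grhl3* and *Nectin1* had 2 each, and *Trp63* and *Esrp2* had 1 each. At least 2 shared regions were found for 35.3% of all protein-coding genes, and at least 3 for 18.4%.

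**Figure D1:**
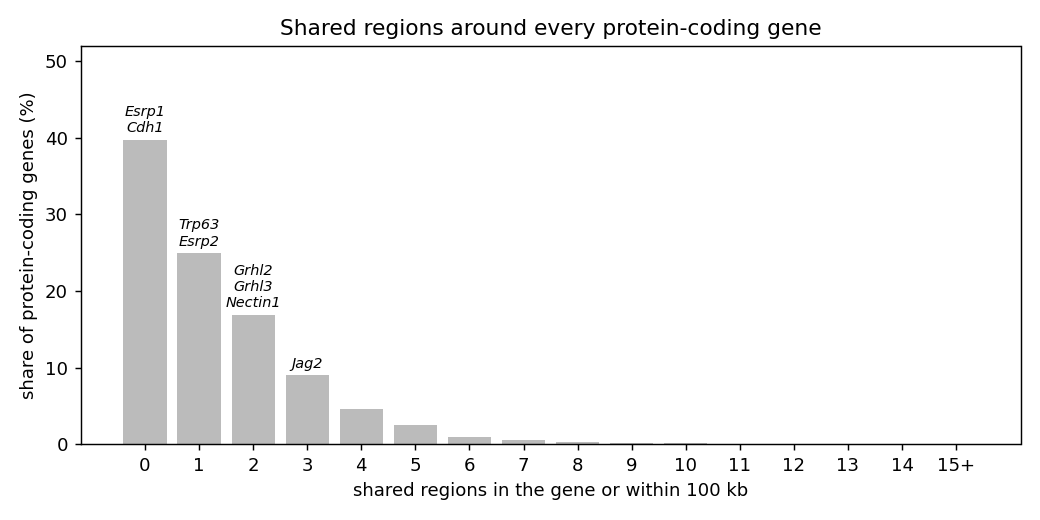
Share of protein-coding genes (vertical axis, percent) by the number of shared regions in the gene or within 100 kb (horizontal axis). The names stand above the bar of the number each gene had: *Esrp1* and *Cdh1* at 0, where 39.8% of all coding genes lay, and *Jag2* at 3, with 9.004%.

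The windows of the 8 genes spanned 2.19 Mb and held 5.02 shared regions per Mb, beside 5.42 per Mb over the windows of all protein-coding genes. For single replicates the densities were 16.4 peaks per Mb in replicate 1 and 40.6 in replicate 2, beside 14.8 and 35.2 over all protein-coding genes. Neighbouring genes share parts of their windows in the latter values.

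Of the 11 shared regions 1 lay inside its gene, in *Trp63*, 4 lay in another gene and 6 in no annotated gene. In all, 5 of the 11 lay in some annotated gene, beside 55.8% of all shared regions. The 10 flanking regions were a median of 28.8 kb from their gene, with a range of 7.41 to 99.2 kb. The annotation used here gives the extent of each gene without exons, so exons, introns and UTRs could not be told apart. With every annotated gene counted, 2 of the 11 regions had the listed gene as their nearest, the ones at *Trp63* and nearest to *Jag2*. With protein-coding genes only, this held for 7.

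**Figure D2:**
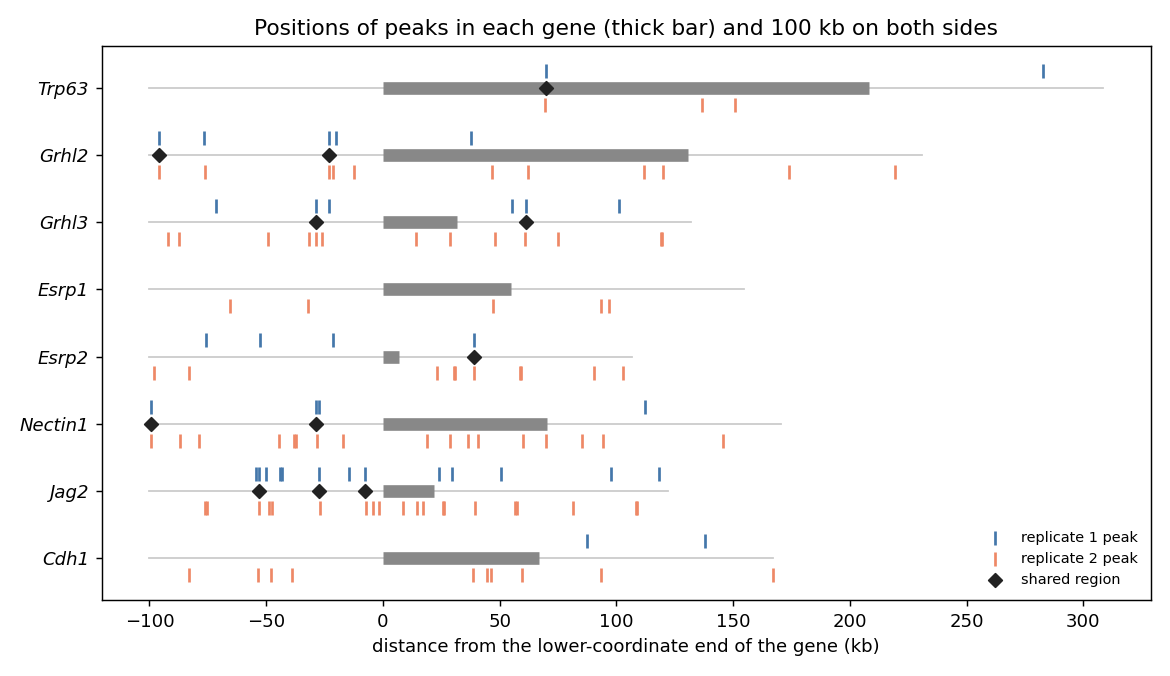
Positions of peaks in each gene, drawn as a thick bar, and in 100 kb on both sides, by distance from the lower-coordinate end of the gene (horizontal axis, kb). Blue ticks are replicate 1 peaks, orange ticks replicate 2 peaks and diamonds shared regions. The 1 diamond on a thick bar is that of *Trp63*, and 8 of the 10 flanking diamonds lie on the lower-coordinate side.

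Within the gene extents the replicates differed. Replicate 1 had 2 peaks there, 1 in *Trp63* and 1 in *Grhl2*, whereas replicate 2 had 23, in each gene but *Esrp2*. Thus 2 of 8 genes held a replicate 1 peak, beside 30.6% of all protein-coding genes, and 7 of 8 held a replicate 2 peak, beside 48.8%. A shared region lay inside 1 of 8 genes, beside 14.6%. Per Mb of gene extent there were 3.38 replicate 1 peaks and 38.9 replicate 2 peaks in these genes, beside 13.9 and 31.8 in all protein-coding genes. These genes were long, with a median extent of 60.9 kb beside 17.2 kb for all protein-coding genes.

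**Figure D3:**
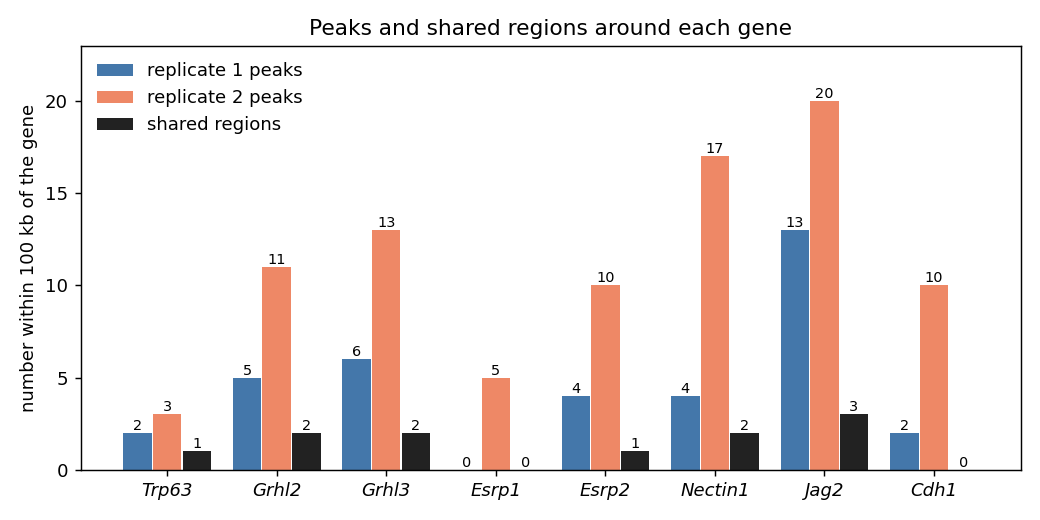
Number of peaks and shared regions (vertical axis) in each gene or within 100 kb of it, with blue bars for replicate 1, orange bars for replicate 2 and black bars for shared regions. *Jag2* had the most of each kind, with 13, 20 and 3, and *Esrp1* had 0 replicate 1 peaks.

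The peaks rested on few fragments. The number of fragments at a summit was recovered from the deposited p-value and fold enrichment, which compares the summit with a background value. Around the 8 genes it ran from 4 to 10 in replicate 1, with a median of 6, and from 6 to 18 in replicate 2, with a median of 10. The fold had a median of 4.17 in replicate 1 and 4.10 in replicate 2, beside 4.33 and 4.12 for all peaks. The highest fold was 5.79 in replicate 1 and 6.19 in replicate 2. Of all peaks, 13.8% in replicate 1 and 5.79% in replicate 2 had a higher fold than that.

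**Figure D4:**
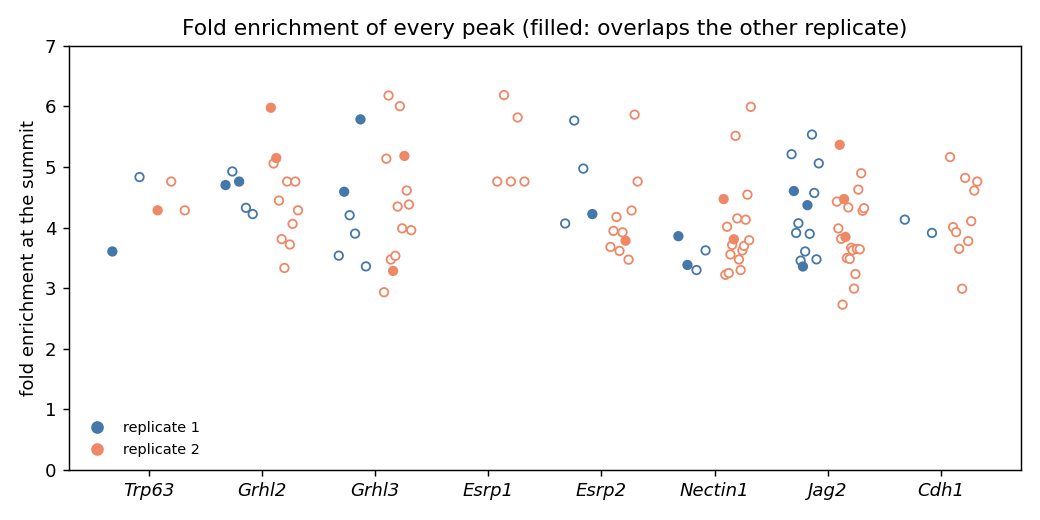
Fold enrichment at the summit (vertical axis) of every peak around each gene, in replicate 1 (blue) and replicate 2 (orange). Filled points overlap a peak of the other replicate. All points lie between 2.73 and 6.19, and *Esrp1* and *Cdh1* have no filled point.

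Of the replicate 1 peaks around these genes, 11 of 36 met a replicate 2 peak, or 30.6% (95% Wilson interval 18.0 to 46.9%). The interval holds the value for the whole list, 38.9%. Of the replicate 2 peaks 11 of 89 met a replicate 1 peak, or 12.4% (interval 7.04 to 20.8%), and this interval holds the 17.2% of the whole list. The same 11 overlaps enter both shares, and the peaks lie around genes chosen with results of these data known. A difference from the rest of the genome was therefore not tested. The intervals cover counting error only.

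The 11 shared regions had a median fold of 4.37 in replicate 1 and 4.47 in replicate 2, beside 5.05 and 5.12 for all shared regions. The lower of the folds had a median of 3.85 beside 4.51, and it was under the median of all shared regions in 7 of the 11. Replicate 2 gave the higher fold in 7 and replicate 1 in 4. Of all shared regions, 49.6% had the higher fold in replicate 2. The difference was not tested. The fold was read as fragments plus 1 over background plus 1. The lowest background was 0.387 fragments in replicate 1 and 1.101 in replicate 2. An added 1 weighs more on a low background, so these counts do not rank the replicates by enrichment. The 11 regions were a median of 111 bp long, from 14 to 460 bp, beside 151 bp for all shared regions. The summits of the overlapping peaks lay a median of 71 bp apart.

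**Figure D5:**
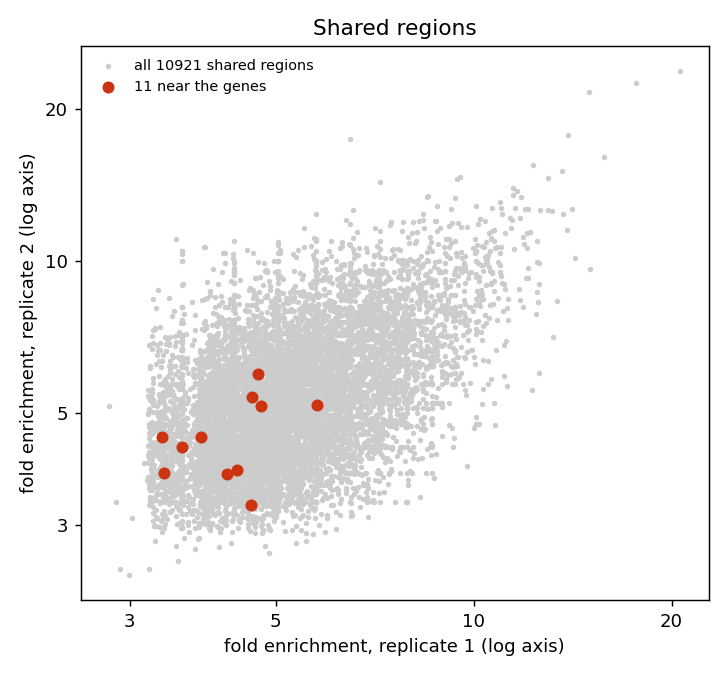
Fold enrichment in replicate 1 (horizontal log axis) and replicate 2 (vertical log axis) of all 10921 shared regions in grey and of the 11 around these genes in red. The red points lie between 3.36 and 5.79 in replicate 1 and between 3.28 and 5.98 in replicate 2, in the lower left part of the grey points.

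*Trp63* lay on chr16:25683763-25892088 in mm10 and had few peaks for its length, 2 in replicate 1 and 3 in replicate 2. Its shared region, chr16:25753477-25753490, was 69.7 kb inside the gene from the lower-coordinate end. The overlap was 14 bp long, the shortest of the 11. Replicate 1 had a fold of 3.60 there on 4 fragments, and replicate 2 a fold of 4.28 on 8 fragments. Both peaks stood on the lowest background of their library, and their summits were 124 bp apart. The highest peak of replicate 1, with a fold of 4.83, lay 74.2 kb beyond the gene, and that of replicate 2, with a fold of 4.76, lay inside it. Neither met a peak of the other replicate.

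*Grhl2*, a grainyhead-like factor on chr15:37232821-37363569, had 5 replicate 1 peaks and 11 replicate 2 peaks. Its shared regions both lay on the lower-coordinate side. The nearer, chr15:37209793-37209919, was 22.9 kb from the gene in no annotated gene, and replicate 1 had a fold of 4.76 there on 6 fragments. Replicate 2 had a fold of 5.15 on 14 fragments. The other, chr15:37136806-37136952, was 95.9 kb away within the lncRNA genes *Gm41302* and *Gm34820*. It had a fold of 4.70 on 6 fragments in replicate 1 and of 5.98 on 14 fragments in replicate 2. The latter was the highest replicate 2 fold around *Grhl2*, while the highest replicate 1 fold, 4.93, belonged to a peak at chr15:37156304-37156483 that ended 64 bp before a replicate 2 peak with a fold of 5.06. Inside the gene there were 1 replicate 1 peak and 4 replicate 2 peaks, which did not meet.

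*Grhl3*, the other grainyhead-like factor, lay on the minus strand of chr4:135541887-135573632 and had 6 replicate 1 peaks and 13 replicate 2 peaks. The shared region chr4:135602750-135603209 lay upstream, 29.1 kb before the start of the gene, in no annotated gene. It was the longest of the 11, at 460 bp, with a fold of 5.79 on 10 fragments in replicate 1 and of 5.18 on 15 fragments in replicate 2. Its lower fold exceeded that of 70.8% of all shared regions, the highest rank among the 11. The other region, chr4:135513373-135513513, lay 28.4 kb downstream, inside *Stpg1*, with a fold of 4.59 on 7 fragments in replicate 1 and of 3.28 on 8 fragments in replicate 2. Its lower fold exceeded that of 3.21% of all shared regions. The peak nearest to the start site was a replicate 2 peak inside the gene, chr4:135570577-135570794, which lay 2.84 kb from the site with a fold of 6.00 on 17 fragments. In replicate 1 the nearest peak was 23.6 kb from the start site, so this signal was listed in replicate 2 alone. The highest replicate 2 fold, 6.18, lay 49.3 kb from the gene and met no replicate 1 peak.

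Each of the 8 genes had a replicate 2 peak in its window, as did 91.7% of all protein-coding genes, and 7 had a replicate 1 peak. The gene without one was a splicing regulator. *Esrp1*, on chr4:11331933-11386783, had 0 replicate 1 peaks and 5 replicate 2 peaks, 1 of them inside the gene. Of all protein-coding genes, 83.0% had a replicate 1 peak in the same window. The highest replicate 2 peak lay 31.8 kb from *Esrp1* with a fold of 6.19 on 12 fragments, which was the highest fold of all 125 peaks in both replicates. The nearest shared region was 219 kb from *Esrp1*. *Esrp2*, on chr8:106130319-106137193, was the shortest of the 8 genes and held no peak of either replicate. Its window had 4 replicate 1 peaks, the highest with a fold of 5.77, and 10 replicate 2 peaks, the highest with a fold of 5.87. The shared region chr8:106169265-106169375 was 32.1 kb away inside *Slc7a6*, an amino acid transporter gene. Replicate 1 had a fold of 4.22 there on 5 fragments, and replicate 2 a fold of 3.78 on 7 fragments.

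Among the adhesion genes, *Nectin1*, on chr9:43737075-43807461, encodes a cell surface protein of the immunoglobulin family. It had 4 replicate 1 peaks and 17 replicate 2 peaks, 6 of the latter inside the gene and 1 of those 0.482 kb from its higher-coordinate end, with a fold of 4.13. No replicate 1 peak lay inside. The shared region chr9:43708625-43708665 was 28.4 kb from *Nectin1*, with a fold of 3.38 on 5 fragments in replicate 1 and of 3.81 on 10 fragments in replicate 2. A further replicate 1 peak with a fold of 3.30 lay 788 bp from that replicate 2 peak. The second shared region, chr9:43637849-43637922, was 99.2 kb away, just inside the limit of 100 kb, with a fold of 3.86 on 6 fragments in replicate 1 and of 4.47 on 12 fragments in replicate 2. The highest replicate 2 peak lay 75.3 kb from *Nectin1* with a fold of 5.99 and met no replicate 1 peak.

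*Cdh1*, which encodes E-cadherin, lay on chr8:106603350-106670247. It had 2 replicate 1 peaks, with folds of 4.13 and 3.91, both outside the gene. Replicate 2 had 10 peaks, 4 of them inside the gene, with a highest fold of 5.16 at 82.7 kb from it. No peak of one replicate met a peak of the other. The closest were a replicate 1 peak at chr8:106690733-106690904 and a replicate 2 peak 5.73 kb farther from the gene. The nearest shared region was 152 kb from *Cdh1*.

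*Jag2*, on the minus strand of chr12:112907803-112929812, had the most peaks, 13 in replicate 1 and 20 in replicate 2. At least as many replicate 1 peaks were found for 1.57% of all protein-coding genes, and at least as many replicate 2 peaks for 5.50%. Its window also held the most other protein-coding genes, 8. The median background of the replicate 2 peaks was 2.27 fragments at *Jag2*, the highest of the 8 genes. It was 1.101 at *Esrp1* and *Trp63* and 1.29 for all replicate 2 peaks. What part the background had in these numbers was not tested.

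The 3 shared regions of *Jag2* all lay downstream of the gene. The nearest, chr12:112900275-112900396, was 7.41 kb from it in no annotated gene, with a fold of 4.37 on 6 fragments in replicate 1 and of 3.85 on 10 fragments in replicate 2. The next, chr12:112880437-112880493, was 27.3 kb away, with a fold of 3.36 on 5 fragments in replicate 1 and of 4.47 on 12 fragments in replicate 2. The protein-coding gene nearest to this region was *Gpr132*, at 12.0 kb. The summits of the region were 515 bp apart, the widest gap of the 11. The third, chr12:112854685-112854776, was 53.0 kb away inside *Gpr132*, with a fold of 4.60 on 8 fragments in replicate 1 and of 5.37 on 18 fragments in replicate 2. At the start of *Jag2*, a replicate 1 peak with a fold of 3.90 lay upstream, 2.17 kb from the start site and 1.86 kb from the end of the gene extent. The nearest replicate 2 peak to the start site lay 3.77 kb upstream with a fold of 2.99, and the peaks were 1.47 kb apart. A replicate 2 peak also lay 1.59 kb beyond the other end of *Jag2*, with a fold of 4.33. The highest replicate 1 fold, 5.54, belonged to an unmatched peak 7.49 kb upstream of the gene.

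Just beyond the limit of 100 kb, the closest shared region was 118 kb from *Jag2*, with folds of 4.66 and 5.98 in replicates 1 and 2. The next was 136 kb from *Nectin1*, with folds of 4.94 and 4.74. Within 250 kb, each of the 8 genes had a shared region, as did 79.3% of all protein-coding genes. With a minimum −log10 q of 2 in both lists, a setting added after the data were seen, 3 of the 8 genes had one within 100 kb, beside 50.3% of all protein-coding genes. *Grhl2* and *Jag2* kept 2 regions each and *Grhl3* kept 1, whereas *Trp63*, *Esrp2* and *Nectin1* kept 0. The lowest −log10 q of the 11 regions in replicate 1 was 1.18, at chr12:112880437-112880493 near *Jag2*. The next was 1.21, at chr9:43708625-43708665 near *Nectin1*. At a −log10 q of at least 5 in both lists, 0 of the 8 genes had one within 100 kb, beside 14.9% of all protein-coding genes. At a fold of at least 5, the upstream region of *Grhl3* was the 1 left, and 28.6% of all protein-coding genes had a region.

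A wider list of 45 genes of the oral epithelium was counted by the same rule. A shared region was found for 32 of them, or 71.1%, beside 60.2% of all protein-coding genes, with a median of 2 per gene beside 1. Several of these genes lie side by side, so that 85 links stood for 64 distinct regions. All 5 epithelial transcription factors of the list had one, *Elf3* with 4, *Ovol1* with 3, *Ovol2* and *Klf5* with 2 each and *Grhl1* with 1. Of the 7 genes of the p63 network, 6 did, among them *Ripk4* with 3, and *Sfn* had 0. The keratin genes *Krt14* and *Krt17* of basal and periderm cells had 5 each and *Krt15* had 4, all in overlapping windows. The simple keratin genes *Krt8*, *Krt18* and *Krt19* had 4 each. The windows of *Krt8* and *Krt18* overlap, and that of *Krt19* overlaps those of *Krt14*, *Krt15* and *Krt17*, so these numbers are not independent.

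Among the junction genes, 5 of 8 adherens junction and nectin genes had a shared region, and *Ctnnb1*, which encodes beta-catenin, had 5. *Ctnnd1*, *Ctnna1* and *Afdn* of the same group had 0 each. The desmosome genes had one in 4 of 6 cases, *Dsp* with 4, and the tight junction and other epithelial adhesion genes in 4 of 6. Of the other Notch pathway genes in the list, *Notch1* had 4, and *Notch2* and *Jag1* had 0. The ESRP splicing targets *Fgfr2*, *Cd44* and *Enah* had 1, 2 and 2. Of the epithelial signals, *Tgfb3* had 2, while *Shh*, *Wnt9b* and *Wnt3* had 0 each.

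A shared region lay in the gene or within 2 kb of it for 1 of the 8 genes, *Trp63*, and for 6 of the 45, beside 16.0% of all protein-coding genes. The region inside *Dsp*, which encodes the desmosomal protein desmoplakin, lay at chr13:38161287-38161797, with folds of 6.94 and 8.39 in replicates 1 and 2. Its lower fold exceeded that of 93.1% of all shared regions. A region 1.40 kb from *Krt19*, chr11:100147330-100147420, had folds of 8.07 and 5.58, and a region inside *Ripk4*, chr16:97743287-97743590, had folds of 5.85 and 5.50. *Krt5* and *Jup* also held a region, and *Krt8* had one 0.669 kb away, with lower folds from 3.65 to 4.87. The difference between the lists was not tested, since the genes were chosen with results of these data known.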

How the data were processed

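CUT&Tag peaks were analysed as deposited by the authors, 1 list per replicate, on mm10. The lists held 28061 and 62093 peaks, with 10921 shared regions. The study reported fewer peaks for each replicate and fewer common to both, so the regions given here are not its own peak set. The study's methods name Trim Galore and bowtie2, whereas the submitters' processing notes name Trim Galore 0.4.5, Bowtie 1.1.2 and MACS2 2.2.7. The labels describe sonicated chromatin and the methods transposase tagging. The settings of peak calling and any control are not given in the sources used here. The deposited fold is a ratio of summit to background, read here as having 1 added to both. The deposited −log10 p and −log10 q are the peak caller's own, and the lists stop at a q of 0.1. The deposited score is the whole part of 10 times the −log10 q.

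Read totals are not given, so depth was judged from fragments at the summit, recovered on the assumption that fold is fragments plus 1 over background plus 1 and that p is a Poisson upper tail. A whole number was found for 100% of peaks within 0.001. The lowest background was 0.387 fragments in replicate 1 and 1.101 in replicate 2.

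Gene extents came from RefSeq of GRCm38.p6, without genes before position 3000000 of chromosomes other than Y. All 8 genes and all 45 of the wider list matched by symbol, and promoter sequences were given for 2 of the 8. A part of the wider list is not reported here. Regions were called shared at 1 bp or more in common. The computations were tested on simulated data. Replicates were numbered by sample record, which pairs nothing.

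Named were all 8 genes, their shared regions, the peak with the highest fold in each replicate and those within 2 kb of a start (of either end where no strand was given). Of the wider list, the 5 with the most shared regions, widened to 10 by ties, and those with one within 2 kb were named, and others after their values were seen. Genes, lists and rules were chosen with earlier results of these data known. Scripts ran in Python 3.11.15 with scipy 1.17.1, pandas 2.3.3, numpy 2.4.6, matplotlib 3.10.9 and statsmodels 0.14.6.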

Additional observations from a re-analysis of the deposited data

How the results depend on the processing

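The main values were 11 shared regions, 6 of 8 genes with one, a median lower fold of 3.85, 32 wider genes and 13120 protein-coding genes. A minimum −log10 q of 5 gave, in that order, 0, 0, none, 9 and 3236. A minimum fold of 5 gave 1, 1, 5.18, 19 and 6223. For the gene extent with 2 kb they were 1, 1, 3.60, 6 and 3481. The lower counts follow from fewer peaks or shorter windows. A minimum −log10 q of 2, added after the data were seen, left 5 regions at 3 genes, with a median of 4.70, beside 28 wider genes and 10962 protein-coding genes. Coverage of 50% of each peak left 5 regions, and a window of 250 kb gave 26 with a median of 4.51. The median was 4.19 with summits within 150 bp and 3.69 for a window of 50 kb. A minimum fold raises the median by its own rule. The cause of the other shifts in fold was not tested. Peaks of 1 replicate alone gave 36 to 89 regions, 7 to 8 genes, medians of 4.10 to 4.17, 43 to 44 wider genes and 18085 to 19964 protein-coding genes. Those medians are of the fold of single peaks, not of the lower fold of a shared region, so they are unlike the main value. Of 54 alternatives to these values, 27 stayed within 1.5 times the main count or within 1 SD of the replicates for the fold. The 27 include counts of wider and of all protein-coding genes. The 11 shared regions stayed so only with summits within 150 bp, a window of 50 kb, or peaks up to 1 kb apart. The median lower fold stayed so only with coverage of 50% of each peak or peaks up to 1 kb apart. Peaks up to 1 kb apart was a setting not planned. For single genes, 37 of 88 did, and 29 were lower and 22 higher. The nearest gene was the listed one for 2 of the 11 regions, and for 7 with protein-coding genes only. No paired analysis was possible because there is 1 group. Motif shares of the regions were not run without a genome sequence.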
